A study of Mus musculus with 6 samples.

Results

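S100a8, S100a9, Wfdc17, Cstdc5 and Cstdc6 were followed through 6 sequencing libraries of mouse hippocampus. They are 5 of the 3733 genes in the deposited table and were taken from it by gene symbol, as genes known from neutrophils and monocytes. They were chosen by name with their normalized levels and fold changes in these libraries known, so their levels, differences and order are a description. Where a fit over the whole table called a member, the count stands beside the share of all genes called, and nothing is read from it. In these libraries the 5 genes shared 1 layout: PIA 1 was the highest library and Control 1 the next, for every one of them, while the other 4 libraries held few reads.

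Total RNA of the hippocampus was extracted and sequenced by a service provider, in 3 groups of 2 libraries each. Of the Control group the labels say nothing beyond that word. PIA, the postnatal immune activation that the series title speaks of, goes by its agent in the design text, LPS (bacterial lipopolysaccharide, which activates innate immunity through TLR4). PIA+IL-27 received LPS and rIL-27, recombinant interleukin 27, a cytokine of the IL-12 family. The design addresses how immune activation changes the hippocampus and what IL-27 adds to it. The labels name no strain, genotype, sex, age, litter, dose or route, nor whether a library is 1 animal or a pool. P-values therefore measure only a spread between these libraries. In the edgeR fits that spread was pooled over the genes tested, so it is not the gene's own.

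Calprotectin is the heterodimer of S100a8 and S100a9, small calcium-binding proteins that fill the cytosol of neutrophils and are also made by monocytes; released from the cell, it binds zinc and manganese and is a ligand of TLR4. Stefins are small cytosolic inhibitors of cysteine cathepsins, and the mouse carries a cluster of recently duplicated stefin A genes, expressed in neutrophils, to which Cstdc5 and Cstdc6 belong. Wfdc17 is a small secreted protein with a whey acidic protein (WAP) domain, described in activated macrophages and microglia. The healthy hippocampus has few neutrophils, which enter brain tissue, meninges and choroid plexus from the blood.

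The promoters of 4 members, genes that lie on 3 chromosomes, are shown, and their part in the shared layout was not tested. They run from 250 bases before to 50 bases after the annotated start of transcription, in the direction of the gene, and were taken from RefSeq on GRCm38.p6. Capitals mark matches to a C/EBP core (TTGCNNAA), a PU.1 core (GAGGAA, which reads TTCCTC where it lies on the other strand) and a TATA box (TATAAA); a GAS element (TTCNNNGAA), bound by STAT factors, and the NF-kB consensus were searched as well. C/EBP and PU.1 factors direct myeloid gene expression.
S100a8 (chr3:90668821-90669120, plus strand): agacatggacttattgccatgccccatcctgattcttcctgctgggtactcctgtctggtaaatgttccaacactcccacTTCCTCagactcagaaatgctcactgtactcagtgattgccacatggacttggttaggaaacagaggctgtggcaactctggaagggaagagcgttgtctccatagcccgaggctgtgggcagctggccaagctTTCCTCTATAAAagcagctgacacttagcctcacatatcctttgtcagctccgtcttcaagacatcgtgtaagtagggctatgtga
S100a9 (chr3:90695672-90695971, minus strand): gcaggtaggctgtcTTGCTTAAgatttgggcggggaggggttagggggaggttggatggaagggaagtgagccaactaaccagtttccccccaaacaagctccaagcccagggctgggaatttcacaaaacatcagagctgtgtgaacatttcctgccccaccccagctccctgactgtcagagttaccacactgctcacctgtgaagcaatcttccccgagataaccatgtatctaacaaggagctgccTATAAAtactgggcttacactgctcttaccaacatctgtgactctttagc
Wfdc17 (chr11:83703806-83704105, plus strand): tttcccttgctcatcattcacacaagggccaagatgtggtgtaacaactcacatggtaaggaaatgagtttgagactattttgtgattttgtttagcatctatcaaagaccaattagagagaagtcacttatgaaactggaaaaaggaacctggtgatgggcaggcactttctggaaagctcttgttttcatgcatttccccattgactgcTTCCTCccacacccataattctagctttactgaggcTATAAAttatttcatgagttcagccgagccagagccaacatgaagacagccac
Cstdc5 (chr16:36367521-36367820, minus strand): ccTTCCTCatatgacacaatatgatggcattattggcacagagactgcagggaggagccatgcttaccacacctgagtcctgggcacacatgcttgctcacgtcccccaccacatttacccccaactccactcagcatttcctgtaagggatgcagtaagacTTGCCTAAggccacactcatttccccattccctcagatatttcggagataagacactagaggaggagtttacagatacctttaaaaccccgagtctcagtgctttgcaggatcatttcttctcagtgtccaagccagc
Both strands were searched, and the capitalised matches did not overlap each other. S100a8 held PU.1 cores at -170 and -36 and a TATA box at -30, counted from the annotated start to the first base of the match. S100a9 held a C/EBP core at -236 and a TATA box at the annotated start itself. In the Wfdc17 promoter a PU.1 core lay at -39 and a TATA box at -3. The Cstdc5 promoter had a PU.1 core at -248 and a C/EBP core at -88. Neither the GAS element nor the NF-kB consensus had its letters in any of the 4 windows. Of 32851 promoters in the same RefSeq table, 28.3% held the PU.1 core, 13.6% the TATA box, 10.8% the C/EBP core, 8.3% the GAS element and 8.46% the NF-kB consensus. A match is a string of letters in the window and was not tested as a binding site.

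The coding sequences of Cstdc5 and Cstdc6 are shown because reads of 1 gene can fit the other. They were taken from GENCODE M21 on GRCm38, where the genes are named BC100530 and BC117090, and capitals mark bases that differ or stand against a gap.
Cstdc5: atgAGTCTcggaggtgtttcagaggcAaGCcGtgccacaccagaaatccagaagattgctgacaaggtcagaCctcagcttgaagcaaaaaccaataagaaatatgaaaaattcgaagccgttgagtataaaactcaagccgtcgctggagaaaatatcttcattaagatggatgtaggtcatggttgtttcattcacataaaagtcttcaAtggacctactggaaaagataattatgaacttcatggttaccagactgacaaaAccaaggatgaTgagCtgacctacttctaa
Cstdc6: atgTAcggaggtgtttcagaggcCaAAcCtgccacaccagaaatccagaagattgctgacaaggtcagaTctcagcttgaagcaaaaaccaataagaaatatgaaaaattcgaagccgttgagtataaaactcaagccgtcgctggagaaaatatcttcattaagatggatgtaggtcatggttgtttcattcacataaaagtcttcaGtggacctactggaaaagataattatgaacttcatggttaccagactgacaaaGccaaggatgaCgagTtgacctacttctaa
The sequences are 294 and 291 bases long, and 280 of the aligned bases are identical and 11 different (96.2% identity), with 3 bases of Cstdc5 against a gap. Their longest identical stretch runs over 138 bases, longer than many sequencing reads. The only library in which their read counts were not whole numbers was PIA 1, with 140.98 for Cstdc5 and 30.02 for Cstdc6, which sum to 171. The split between this pair of genes is therefore an estimate of the authors' counting there, and their sum is the firmer value. An antisense gene, Gm15845, overlaps Cstdc5. Whether the counting used strand is not stated in the sources at hand, so reads of Gm15845 cannot be told apart from those of Cstdc5.

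The whole series sets the frame for the members. The authors' threshold, a log2 fold change of 1 or more in size at a Q value of 0.05 or less, was met by every listed gene in 1 or more of their 3 comparisons. The table is thus a selection from these same libraries, and no other gene was analysed here. Reads in listed genes numbered 641672 to 1593441 per library and held 2.14 to 5.61% of each library by TPM, a level corrected for gene length and scaled to the same total in every library. Libraries of 1 group stood apart from each other in several genes. For Ttr, a thyroxine carrier secreted by choroid plexus, Control 1 counted 78.4 normalized reads, Control 2 58611, PIA 1 11302, PIA 2 141, PIA+IL-27 1 6.26 and PIA+IL-27 2 649. For the sum of 4 listed Y-linked genes the 6 values were 2.94, 9.52, 541, 594, 1476 and 6.80 in the same order. These genes were thus low in both Control libraries and high in both PIA libraries, so that treatment and Y-linked level cannot be told apart in PIA against Control, while the PIA+IL-27 pair was split. Prox1, a marker of dentate granule cells, was present in every library, at 96.0 in PIA 2, 172 in PIA+IL-27 1 and 589.7 to 1358 in the other 4. The part of these differences in the levels below was not tested.

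Levels are given as normalized reads, and the values of a pair of libraries stand in the order of their replicate numbers. S100a8 had 153 normalized reads in Control 1 but 5.71 in Control 2, then 598 in PIA 1 but 19.6 in PIA 2, and 26.1 and 14.6 in the PIA+IL-27 pair. This normalized read count is the authors' read count, raised to the next whole number and divided by 1 factor per library, and the factors lie between 0.9166 and 1.05. PIA 1 therefore stood far above every other library, Control 1 came next, and the lowest library was the other Control. The PIA 1 level was 30.4 times that of PIA 2 (95% interval 19.1 to 51.7, from counting error only), and Control 1 had 26.7 times the level of Control 2 (12 to 74.0). Between PIA 1 and Control 1, libraries of different treatment, the ratio was 3.91 (3.28 to 4.69). As TPM, S100a8 reached 758 in PIA 1 and 218 in Control 1, against 8.40 to 38.6 in the other 4.

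S100a9, the partner of S100a8, followed the same order of the leading libraries. It had 140.1 and 6.67 normalized reads in the Control pair, 548 and 17.5 in the PIA pair and 44.8 and 11.7 in the PIA+IL-27 pair. Within PIA the libraries differed by a factor of 31.4 (95% counting interval 19.1 to 55.3), within Control by 21 (9.94 to 53.2) and within PIA+IL-27 by 3.85 (1.99 to 8.02). The ratio of PIA 1 to Control 1 was again 3.91 (3.25 to 4.73). Per length, S100a8 was above S100a9 in all 6 libraries: the ratio of their TPM was 2.71 in PIA 1, 2.88 in Control 1, 2.73 in PIA 2, 2.12 in Control 2, and 2.90 in PIA+IL-27 2, with the lowest ratio, 1.49, in PIA+IL-27 1.

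Among the stefins, Cstdc5 had 28.4 and 0.952 normalized reads in the Control pair, 135 and 3.27 in the PIA pair and 6.26 and 1.94 in the PIA+IL-27 pair. In read counts these were 29 and 1, 140.98 and 3, and 6 and 2, so that 4 of the 6 libraries rest on 6 reads or fewer. PIA 1 held 41.4 times the level of PIA 2 (13.9 to 203) and 4.77 times that of Control 1 (3.18 to 7.38). Cstdc6 was the scarcest member, with 29.8 normalized reads in PIA 1, 9.79 in Control 1, and 0.971 (a single read) in PIA+IL-27 2. The other 3 libraries had 0 reads, which allows a level of up to 3.27 for PIA 2, 3.13 for PIA+IL-27 1 and 2.86 for Control 2, at a floor of 3 counts. Set against that floor, PIA 1 was 8.8-fold higher than PIA 2, and Control 1 3.43-fold higher than Control 2. These ratios leave out the counting error of PIA 1 and Control 1. Cstdc5 and Cstdc6 together had 39 and 1 reads in the Control pair, 171 and 3 in the PIA pair and 6 and 3 in the PIA+IL-27 pair, the layout of the calprotectin genes at a smaller depth.

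Wfdc17 had 34.3 and 0.952 normalized reads in the Control pair, 135 and 6.55 in the PIA pair and 3.13 and 0 in the PIA+IL-27 pair. Of the 5 members it alone had both PIA+IL-27 levels under both PIA levels. That separation rests on 6 reads in PIA 2 against 3 and 0 reads in PIA+IL-27. The counting interval of PIA 2 over PIA+IL-27 1 reaches from 0.447 to 12.9 around a ratio of 2.09. PIA 1 had 20.5 times the level of PIA 2 (9.21 to 56.9) and 3.92 times that of Control 1 (2.69 to 5.86).

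**Figure D1:**
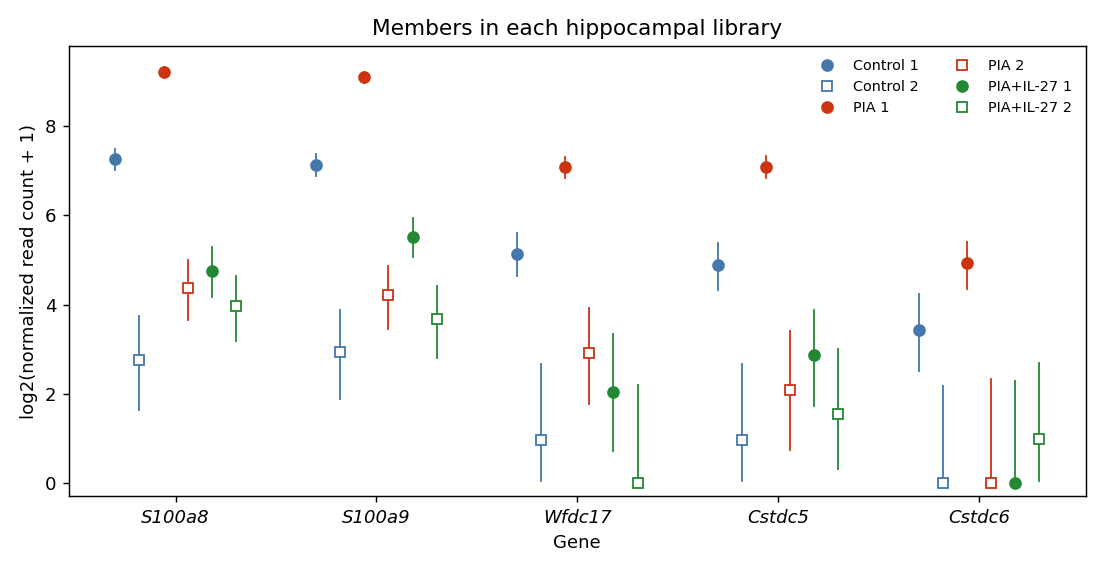
Level of the 5 genes in each library, as log2 of the normalized read count plus 1; filled circles are libraries numbered 1, open squares libraries numbered 2, and bars are 95% Poisson intervals for counting error only. For every gene the PIA 1 point is highest and the Control 1 point next, from 598 and 153 normalized read counts for S100a8 to 29.8 and 9.79 for Cstdc6.

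PIA 1 and Control 1 together held 91.9% of the normalized reads of S100a8 over the 6 libraries, 89.5% of S100a9, 94.1% of Wfdc17, 93.0% of Cstdc5 and 97.6% of Cstdc6. PIA 1 alone held 71.3 to 76.8% of each. For the median gene of the table PIA 1 held 11.2% and Control 1 held 8.74%. In the table as a whole, 48 genes (1.29%), the members included, had a PIA 1 share at or above the lowest of the members. The order of PIA 1 first and Control 1 second, ties counted, held for 5 of 5 members and for 192 of 3733 genes (5.14%). PIA 1 was highest in 464 genes (12.4%), and both libraries exceeded the other 4 in 209 genes (5.6%). These shares describe the layout, which was known when the members were chosen.

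Below the leading libraries the order was less distinct. For S100a8, PIA 2 had 0.753 times the level of PIA+IL-27 1 (95% counting interval 0.387 to 1.44) and 1.35 times that of PIA+IL-27 2 (0.642 to 2.87), so these neighbours did not differ beyond counting error. PIA+IL-27 2 over Control 2 was 2.55 (0.934 to 8.02). For S100a9, PIA+IL-27 1 stood above PIA 2, whose level was 0.389 times as high (0.205 to 0.705), and PIA 2 stood above Control 2 by a ratio of 2.62 (1.02 to 7.53). The stefins and Wfdc17 had 6 reads or fewer in each of the 4 libraries, too few for an order.

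The group means of PIA were the highest and those of PIA+IL-27 the lowest for all 5 genes, with a spread between libraries as large as the mean or larger in Control and PIA. For S100a8 the Control mean was 79.3 ± 104 normalized reads, the PIA mean 309 ± 409 and the PIA+IL-27 mean 20.3 ± 8.13 (mean ± SD, n = 2 libraries each). S100a9 had 73.4 ± 94.3, 283 ± 375 and 28.2 ± 23.5 in the same order. Wfdc17 had 17.6 ± 23.6, 70.5 ± 90.5 and 1.56 ± 2.21, Cstdc5 had 14.7 ± 19.4, 69.4 ± 93.5 and 4.10 ± 3.05, and Cstdc6 had 4.90 ± 6.93, 14.9 ± 21.1 and 0.485 ± 0.687. In bulk tissue a lower number of cells of a type and less RNA per cell cannot be told apart.

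In PIA against Control, the fitted log2 fold changes were 1.96 ± 0.96 (SE, n = 2 per group) for S100a8, 1.95 ± 0.96 for S100a9, 2.0 ± 1.09 for Wfdc17, 2.24 ± 1.10 for Cstdc5 and 1.55 ± 1.30 for Cstdc6. These SEs, like those of the later comparisons, use the spread pooled over genes and not the gene's own spread between its libraries. The groups overlapped for 5 of 5 members, since PIA 2 lay below Control 1 in each. Groups did not overlap in 33.7% of all listed genes. The edgeR quasi-likelihood test over 3216 genes called 0 of the 5 members, against a background of 0.218% called; 3 of them had an unadjusted p under 0.05, as did 202 of all genes tested, and DESeq2 and limma also called 0 of them. Leaving out PIA 1 turned the direction to -2.01 for S100a8, -2.06 for S100a9, -1.41 for Wfdc17 and -2.12 for Cstdc5, and Cstdc6 was then too scarce to be fitted. Without Control 1 the values of the 5 genes were 5.38 to 6.87, the last for Cstdc6, which then has no read in Control. The Y-linked sums, low in both Control libraries and high in both PIA libraries, cannot be told apart from treatment in this comparison. The median over all genes tested was -0.68, and it moved to -0.01 when the factors were recomputed over the listed genes (TMM); the members kept their direction under that scaling.

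The authors' deposited table gives Q values from 6.60e-67 for S100a8 to 0.00236 for Cstdc6 in PIA against Control, with log2 values of 1.59 to 2.27. All 5 members met the authors' threshold in this comparison, as did 52.4% of all listed genes. In PIA+IL-27 against PIA the authors' deposited table also lists all 5 (background 79.7%), and in PIA+IL-27 against Control again all 5 (background 21.8%). Genes listed in all 3 comparisons made up 3.56% of the table.

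In PIA+IL-27 against PIA, the fitted log2 fold changes were -3.92 ± 1.05 for S100a8, -3.32 ± 1.02 for S100a9, -5.42 ± 1.35 for Wfdc17, -4.05 ± 1.23 for Cstdc5 and -4.55 ± 1.65 for Cstdc6 (SE, n = 2 per group). The Cstdc6 value rests on 1 read in the PIA+IL-27 group. Groups did not overlap for 1 of 5 members, Wfdc17, and for 73.5% of all listed genes, of which 16.5% of the table lay lower. S100a8 and Wfdc17 were among the genes called lower by edgeR, 2 of 5 members beside a background of 0.435% called in either direction and 0.373% called lower. Because the members were chosen with these values known, nothing is read from that count. By edgeR 5 of the 5 had an unadjusted p under 0.05 (602 over all genes), and by limma also 5, from which nothing is read either. DESeq2 called 0 of the 5, with 2 at an unadjusted p under 0.05 (946 over all genes), and limma called 1, Wfdc17. In PIA+IL-27 against PIA without PIA 1 the values were 0.05 for S100a8, 0.69 for S100a9, 0.31 for Cstdc5 and -2.01 for Wfdc17, and none of the 4 was called. Without PIA+IL-27 1 the Wfdc17 value was -9.16, and without PIA+IL-27 2 the Cstdc6 value was -6.87. In both cases the PIA+IL-27 library that was left has 0 reads of the gene, so these values depend on the prior count and are no bound.

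In PIA+IL-27 against Control, the fitted log2 fold changes were -1.96 ± 0.98 for S100a8, -1.38 ± 0.96 for S100a9, -3.42 ± 1.31 for Wfdc17, -1.82 ± 1.18 for Cstdc5 and -3.01 ± 1.69 for Cstdc6. The groups overlapped in 5 of 5 members, and did not overlap in 30.5% of all listed genes. The edgeR test called 0 of the 5, against 0.311% called of all genes; 2 had an unadjusted p under 0.05, as did 92 of all genes tested, and DESeq2 and limma called 0. Without Control 1 the values turned to 1.81, 2.06, 0.62, 1.96 and 2.32 in the same order of genes. Wfdc17 moved to -7.16 without PIA+IL-27 1 and Cstdc6 to -5.32 without PIA+IL-27 2, again with 0 reads left in PIA+IL-27. These comparisons share libraries with those above and are not independent of them.

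**Figure D2:**
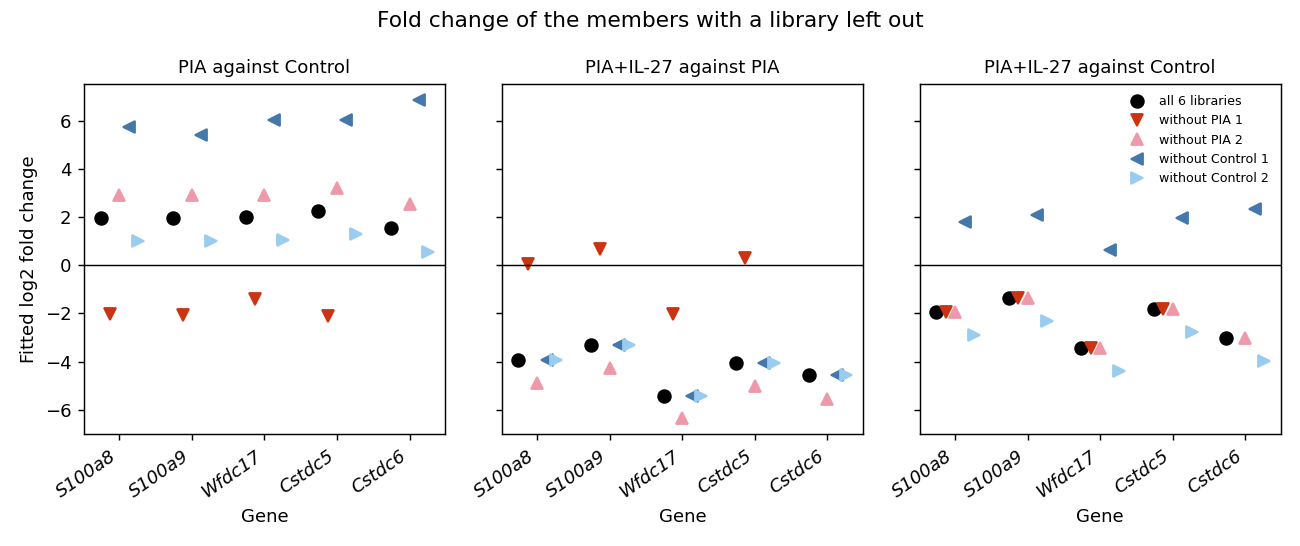
Fitted log2 fold change of the 5 genes in each of the 3 comparisons, with all 6 libraries (black circles) and with 1 library of Control or PIA left out (triangles); the line marks 0. The S100a8 value in PIA against Control is 1.96 with all libraries, -2.01 without PIA 1 and 5.73 without Control 1, and in PIA+IL-27 against Control it moves from -1.96 to 1.81 without Control 1.

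The other stefins of the same cluster repeated the layout of Cstdc5. Stfa2, Stfa3, Stfa2l1 and Cstdc4 were the 4 further genes of the stefin and cystatin list in the table, out of 23 names on that list. Cstdc4 had 36.2 and 0 normalized reads in the Control pair, 138 and 1.09 in the PIA pair and 8.34 and 0.971 in the PIA+IL-27 pair. Stfa2 had 26.4 and 0.952, 93.2 and 0, and 6.26 and 0.971 in the same order. PIA 1 was highest and Control 1 next in 4 of 4, beside 5.14% of the whole table. The coding sequences of Stfa2 and Stfa2l1 are 96.5% identical, so their split is uncertain as well, although all of their read counts were whole. Their median log2 fold change was 1.85 in PIA against Control and -3.77 in PIA+IL-27 against PIA, beside -0.68 and 1.17 for all genes tested, and without PIA 1 these medians were -2.72 and 0.85. None of the 4 was called by edgeR, DESeq2 or limma in any comparison, with 4 at an unadjusted p under 0.05 by edgeR in PIA+IL-27 against PIA and 0 in the comparisons with Control.

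Of the proteases that stefins inhibit, 2 of the 11 listed cathepsin and legumain genes were in the table. Ctsc, which activates the serine proteases of neutrophil granules, had 675 and 383 normalized reads in the Control pair, 1016 and 472 in the PIA pair and 414 and 303 in the PIA+IL-27 pair. Its leading libraries were PIA 1 and Control 1, at smaller ratios than the stefins. Ctsh, an aminopeptidase of the lysosome, had 364 and 65.7, 406 and 516, and 60.5 and 244, with PIA 2 highest. Neither gene was called by edgeR, DESeq2 or limma in any comparison, with 0 at an unadjusted p under 0.05 by edgeR.

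Among WAP domain genes besides Wfdc17, the table held 4 of the 22 listed names. Slpi, an inhibitor of neutrophil elastase, had 11.8 and 0.952 normalized reads in the Control pair, 83.6 and 5.46 in the PIA pair and 4.17 and 2.91 in the PIA+IL-27 pair. Wfdc21 had 1.96 and 0, 19.2 and 0, and 1.04 and 0. Both had the order of the members. Wfikkn2 (56.8 and 389, 117 and 116, 65.7 and 33.0) and Wfdc2 (0.979 and 38.1, 23.1 and 4.36, 7.30 and 2.91) were instead highest in Control 2, the library with the most Ttr. Of the further S100 genes, S100a6 was highest in PIA 1 (429.5) and next in Control 1 (269), against 124 to 160.4 in the other 4. S100a11 had 448 in PIA 1 and 338 in PIA 2 and 105 to 247 in the other 4. S100b, an astrocyte gene, was lowest in PIA 1 and Control 1, at 49.97 and 62.7, against 101 to 245. Of the 4 WAP genes edgeR and limma tested 3, without Wfdc21, and DESeq2 tested 4. None of the tested WAP genes and 3 S100 genes was called by these tools in any comparison. By edgeR 1 WAP gene and 0 S100 genes had an unadjusted p under 0.05 in each.

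Receptors and adaptors through which calprotectin and LPS signal were represented by 3 of 14 listed genes. Cd14, the coreceptor of TLR4, had 155 and 50.5 normalized reads in the Control pair, 364 and 133 in the PIA pair and 111 and 24.3 in the PIA+IL-27 pair. Irak3, an inhibitor of the pathway, had 33.3 and 3.81, 118 and 30.5, and 16.7 and 1.94. Both had the members' order of libraries. Myd88, the adaptor of most Toll-like receptors, had 146 and 72.4, 243 and 202, and 103 and 69.9, so that the PIA pair exceeded the Control pair. None of the 3 was called by edgeR, DESeq2 or limma, and 0 in PIA against Control and 2 in PIA+IL-27 against PIA had an unadjusted p under 0.05 by edgeR.

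In several genes that recruit neutrophils and monocytes PIA 2 exceeded both Control libraries, which it did for none of the members. Of 29 listed genes, 18 were in the table, and PIA 1 was highest with Control 1 next in 9 of them, ties counted. Over the whole table that order held for 5.14% of genes. Cxcl2 is among the 9 only by a tie at 0, and both libraries exceeded the other 4 in 8 genes. The PIA pair exceeded the Control pair without overlap in 7 of the 18 (background 17.2% higher), and the PIA+IL-27 pair was under the PIA pair in 11 (background 16.5% lower). Tnf had 11.8 and 0.952 normalized reads in the Control pair, 49.97 and 21.8 in the PIA pair and 4.17 and 3.88 in the PIA+IL-27 pair. Ccl7, a monocyte chemoattractant, had 5.88 and 0.952, 59.6 and 15.3, and 5.21 and 4.85. Il1b had 18.6 and 1.90, 72.1 and 7.64, and 3.13 and 4.85, and Ccl2, the main ligand of the monocyte receptor CCR2, 33.3 and 2.86, 113 and 27.3, and 5.21 and 3.88. For the neutrophil attractants the numbers were small: Cxcl1 had 9.79 and 1.90, 25.9 and 4.36, and 2.09 and 2.91, and Cxcl2 had 5.77 in PIA 1 and 0 elsewhere. The median log2 fold change of the 13 tested genes was 1.46 in PIA against Control, with 13 above 0, and 0.52 without PIA 1; in PIA+IL-27 against PIA it was -2.55, with 13 below 0, and -1.24 without PIA 1. The edgeR test called 0 of the 13 in each comparison, with 2, 7 and 0 at an unadjusted p under 0.05 in PIA against Control, PIA+IL-27 against PIA and PIA+IL-27 against Control, and DESeq2 and limma called 0.

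Myeloid transcription factors had the members' order in 1 of 4 cases, beside 5.14% of the whole table. Cebpd, induced in the acute phase, had 149.9 and 87.6 normalized reads in the Control pair, 295 and 103 in the PIA pair and 67.8 and 56.3 in the PIA+IL-27 pair, in the members' order. Spi1, which encodes PU.1, had 208 and 79.0, 368 and 289, and 114 and 73.8, and Cebpb had 99.9 and 50.5, 156 and 110.2, and 38.6 and 49.5. In these genes PIA 2 exceeded both Control libraries. Irf8, a factor of monocytes and microglia, was highest in PIA 2, with 163 and 67.6, 187 and 429, and 146 and 83.5. These 4 of the 12 listed factors were in the table, and none was called by edgeR, DESeq2 or limma, with 0 at an unadjusted p under 0.05 by edgeR in each comparison.

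Neutrophil genes that are not members shared the layout in most cases. Of 38 listed neutrophil genes, 31 were in the table, 30 of them outside the members. PIA 1 was highest and Control 1 next in 24 of the 30, beside 5.14% of the whole table. The list was chosen with earlier results known, so this count is a description. Some of the 24 rest on few reads, such as Wfdc21 with 19.2 in PIA 1 and 1.96 in Control 1. Mmp8, the collagenase of neutrophil granules, had 11.8 and 0 normalized reads in the Control pair, 74.9 and 1.09 in the PIA pair and 3.13 and 0.971 in the PIA+IL-27 pair. Retnlg, a secreted resistin-like protein of neutrophils, had 57.8 and 0, 145 and 1.09, and 4.17 and 1.94. Cxcr2, the receptor for neutrophil chemokines, had 8.82 and 1.90, 83.6 and 5.46, and 8.34 and 1.94. Ly6g, the surface antigen that defines mouse neutrophils, had 2.94 and 0.952 in the Control pair, 10.6 in PIA 1 and 0 in the other 3 libraries. Mpo and Elane, enzymes made by neutrophil precursors, did not have the layout: Mpo had its highest level in PIA+IL-27 1 (12.5) and Elane in PIA 2 (6.55). The other exceptions were Cd177, Hdc, Hcar2 and Cd300lf, and Hdc is also a gene of mast cells and neurons. Formyl peptide receptors sense bacterial products, and Fpr1 had 24.5 and 1.90, 142 and 21.8, and 15.6 and 0, and Fpr2 had 22.5 and 3.81, 151 and 19.6, and 17.7 and 2.91.

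The median log2 fold change of the 22 tested neutrophil genes outside the members was 1.99 in PIA against Control, with 20 above 0 and 2 below. In PIA+IL-27 against PIA it was -3.28 with 21 below 0, and in PIA+IL-27 against Control -1.04 with 22 below. Over all genes tested the medians were -0.68, 1.17 and 0.55. Without PIA 1 the neutrophil medians were -0.40 in PIA against Control (10 above, 12 below) and -0.85 in PIA+IL-27 against PIA. Leaving out Control 1 gave 3.95 in PIA against Control and 0.72 in PIA+IL-27 against Control, and leaving out Control 2 gave 1.15 and -1.77. In PIA against Control edgeR called 0 of the 22, with 8 at an unadjusted p under 0.05, and DESeq2 and limma called 0. In PIA+IL-27 against Control edgeR, DESeq2 and limma called 0, with 4 at an unadjusted p under 0.05 by edgeR.

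Lcn2, the iron-sequestering lipocalin of neutrophil granules that activated astrocytes also make, was the neutrophil gene called lower in PIA+IL-27 than in PIA. By edgeR it was 1 of 22 tested, with 16 at an unadjusted p under 0.05, beside 0.373% of all genes called lower. The table is a selection from these same libraries and the list was chosen with earlier results known, so nothing is read from this call. Lcn2 had 214 and 1.90 normalized reads in the Control pair, 1496 and 46.9 in the PIA pair and 50.1 and 2.91 in the PIA+IL-27 pair. The PIA 1 level was 31.9 times that of PIA 2 (95% counting interval 23.6 to 44.2), and PIA 2 and PIA+IL-27 1 did not differ beyond counting error (ratio 0.937, 0.606 to 1.44). The groups overlapped. The log2 fold change was -4.86 ± 1.03 (SE, n = 2 per group; adjusted p = 0.00117, edgeR), and without PIA 1 it was -0.83 (adjusted p = 0.642, edgeR). Without either Control library the fold change was still -4.87, at an edgeR adjusted p of 0.0741 and 0.0789. It was -7.99 without PIA+IL-27 1 (adjusted p = 0.0663, edgeR) and -3.94 without PIA+IL-27 2 (adjusted p = 0.559, edgeR). In DESeq2 it was -4.87 and the adjusted p 0.194, and in limma on log2(TPM + 1) the adjusted p was 0.00934; over all alternatives the adjusted p ran from 0.00197 to 0.642. In PIA against Control the Lcn2 log2 fold change was 2.84 ± 0.93 (adjusted p = 0.278, edgeR).

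**Figure D3:**
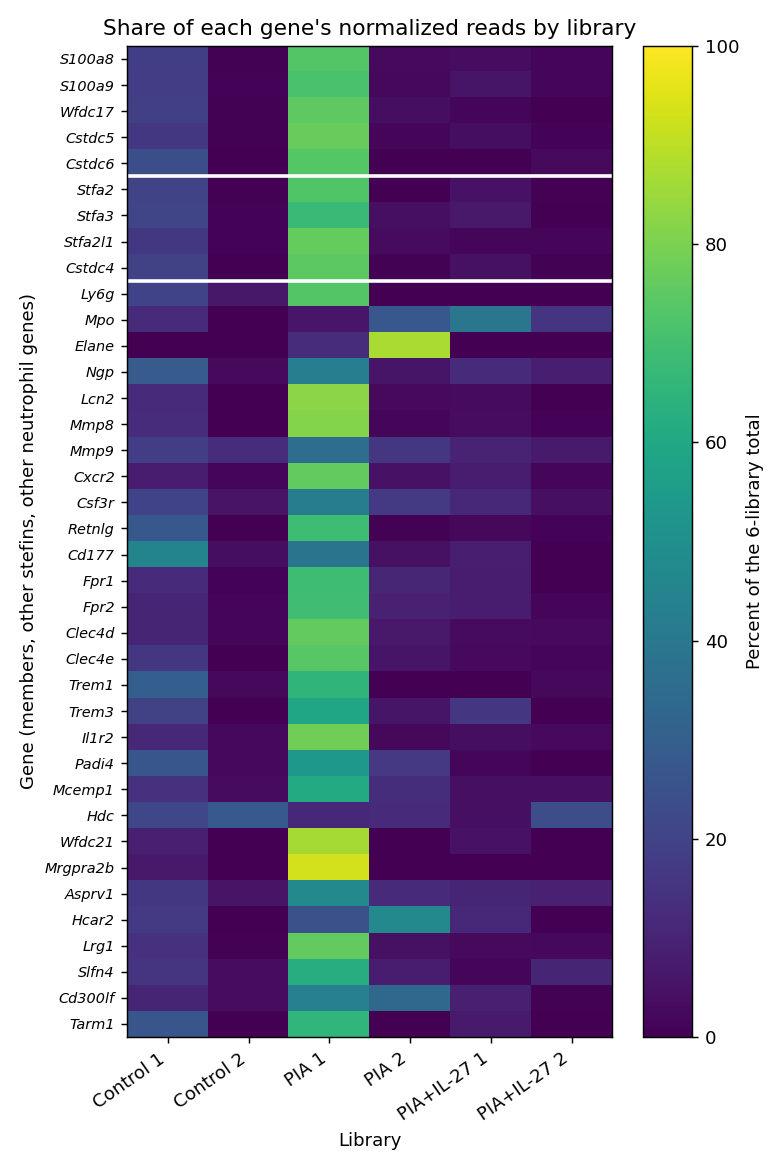
Percent of each gene's normalized reads, summed over the 6 libraries, that lies in each library (colour); rows are the 5 members, the 4 other stefins and 29 of the 30 other listed neutrophil genes, separated by white lines. The PIA 1 column is brightest for the members, at 71.3 to 76.8%, and Control 1 holds 16.1 to 24.2% of them; Elane, Mpo and Hdc are among the rows with another layout.

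Monocyte genes had the members' order of libraries in 14 of the 23 that were in the table, out of 34 listed. Over the whole table that order held for 5.14% of genes. Ly6c2, the antigen of inflammatory monocytes, had 12.7 and 0.952 normalized reads in the Control pair, 36.5 and 8.73 in the PIA pair and 3.13 and 6.80 in the PIA+IL-27 pair. Chil3, a secreted chitinase-like protein, had 4.90 and 0, 83.6 and 2.18, and 4.17 and 0.971. Lyz2, the lysozyme of all myeloid cells, had 836 and 142, 978 and 616, and 456 and 114, so that PIA 1 exceeded PIA 2 by a ratio of 1.59 (95% counting interval 1.43 to 1.76) where the ratio for S100a8 was 30.4. Fcgr4 had 57.8 and 5.71, 139 and 81.8, and 16.7 and 8.74, so that the PIA pair exceeded the Control pair. Among the genes without the members' order, Vcan had 268 and 791, 262 and 357, and 1302 and 907. Itga4 had 54.9 and 181, 63.4 and 63.3, and 186 and 214, and both genes were highest in the PIA+IL-27 pair. Ace was highest in Control 2, at 784. The median log2 fold change of the 19 tested genes was 1.19 in PIA against Control (0.15 without PIA 1), -1.88 in PIA+IL-27 against PIA (-0.97 without PIA 1) and -0.85 in PIA+IL-27 against Control (0.55 without Control 1). The edgeR test called 0 of the 19 in each comparison, with 1, 10 and 1 at an unadjusted p under 0.05, and DESeq2 and limma called 0.

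Markers of other cells that hippocampal tissue can hold were set beside the members. The 12 of 26 listed microglial genes in the table summed to 166 to 441 TPM per library, highest in PIA 2 and lowest in PIA+IL-27 2. PIA 1 was highest with Control 1 next in 1 of these genes, Itgam, beside 5.14% of the whole table. P2ry12, the receptor that defines resting microglia, had 14.7 and 232 normalized reads in the Control pair, 9.61 and 56.7 in the PIA pair and 258 and 184 in the PIA+IL-27 pair. It was thus lowest in the very libraries where the members were highest. Complement C1qa, made by microglia, had 702 and 317, 623 and 1501, and 627 and 355, with PIA 2 highest. No microglial gene was called by edgeR, DESeq2 or limma, with 0, 3 and 0 at an unadjusted p under 0.05 by edgeR in PIA against Control, PIA+IL-27 against PIA and PIA+IL-27 against Control. The 6 of 22 listed lymphocyte genes summed to 0.51 to 8.76 TPM, highest in PIA 1, and none of the 15 listed red cell and platelet genes was in the table.

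The 31 listed neutrophil genes, S100a9 included, summed to 188 and 23.6 TPM in the Control pair, 787 and 50.8 in the PIA pair and 62.8 and 24.6 in the PIA+IL-27 pair. Monocyte genes summed to 66.4 to 343 TPM and recruitment genes to 18.8 to 236 TPM, with PIA 1 highest and Control 1 next in both lists. Choroid plexus genes, 15 of 15 in the table, summed to 39.1 and 14271 TPM in the Control pair, 2403 and 56.2 in the PIA pair and 54.3 and 179 in the PIA+IL-27 pair. Control 2, with the most choroid plexus transcripts, had the lowest level of S100a8, and PIA 1, with the next most, had the highest. The 7 listed meningeal fibroblast genes summed to 226 and 203 TPM in the Control pair, 269 and 217 in the PIA pair and 148 and 75.1 in the PIA+IL-27 pair, with PIA 1 highest and Control 1 next. The part of choroid plexus and meningeal tissue in the members' levels was not tested. The meningeal sums hide differences between genes. In the Control pair Col1a1 had 67.5 and 29.99 TPM, Col1a2 74.6 and 73.6, and Col3a1 47.7 and 51.0.

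**Figure D4:**
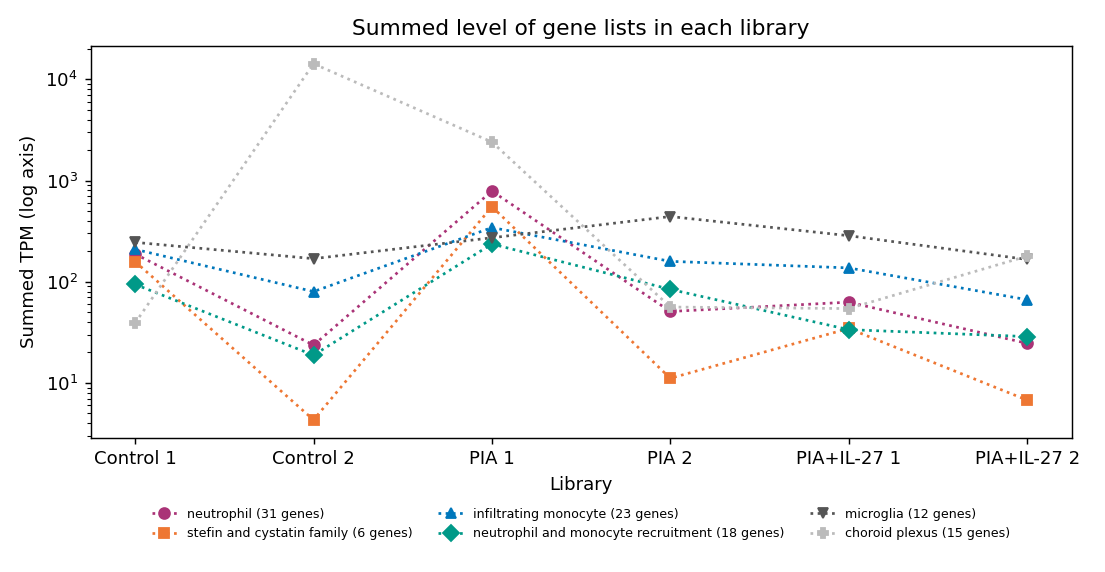
Summed TPM of 6 gene lists in each library, on a log axis, with the number of listed genes found in the table in the key; dotted lines join the points of 1 list and imply no order of libraries. Neutrophil genes and stefins are highest in PIA 1 (787 and 552 TPM) and next in Control 1 (188 and 158). These sums include S100a9 in the neutrophil list and Cstdc5 and Cstdc6 among the stefins. The microglial sum lies between 166 and 441 and hides differences between genes. C1qa and C1qb hold 191 and 159 of it in PIA 2, and P2ry12 runs from 0.45 in PIA 1 to 12.8 in PIA+IL-27 1.

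The genes whose levels were most like those of a member were ranked by Pearson's r on log2 of the normalized read count plus 1 over the 6 libraries, among 3055 genes with a mean of at least 10 reads. For S100a8 they were Cstdc5 (r = 0.994), Ltb4r1 (0.993), a receptor for leukotriene B4, Mmp8 (0.991), S100a9 (0.987) and Timp1 (0.986). For S100a9 they were Cstdc4 (0.996), Cstdc5 (0.994), Mmp8 (0.99), S100a8 (0.987) and Ifitm6 (0.983). Cstdc5 was nearest to Mmp8 (0.996), S100a8 and S100a9 (both 0.994), Ms4a6c (0.987) and Cstdc4 (0.985). The nearest genes of Wfdc17 were others: Sirpb1c (0.996), Ctsc (0.994), Cytip (0.988), Rab32 (0.987) and Ptpn7 (0.986). Among the genes nearest to Cstdc6 were Sct (0.988), Ccl6 (0.986), S100a6 (0.977) and Stfa2l1 (0.964). All these values share the same 6 libraries. The genes were picked by r over all 6, so a high r over a part of them is partly built in. Wfdc17 and Cstdc5 have 6 reads or fewer in each library besides PIA 1 and Control 1. Over the 4 libraries besides PIA 1 and Control 1, r was 0.837 to 0.993 for the genes nearest to S100a8, S100a9, Wfdc17 and Cstdc5, and -0.006 to 0.846 for those nearest to Cstdc6, which has 1 read in these 4.

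Likeness of pattern did not mean likeness of size. Ctsc had r = 0.994 with Wfdc17, but its PIA 1 level of 1016 normalized read counts was set against 472 in PIA 2, where Wfdc17 had 135 against 6.55. Timp1, an inhibitor of matrix proteases, had 109.7 and 11.4 in the Control pair, 239 and 32.7 in the PIA pair and 22.9 and 16.5 in the PIA+IL-27 pair.

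Genes next to the members on the chromosome were examined within 500 kb, by the order of genes in the RefSeq table. Near S100a8 and S100a9 on chromosome 3, the table held 2 further genes of 38 in that window. S100a6 had the members' order of libraries, and the nuclear pore gene Nup210l (8.82 and 12.4, 17.3 and 16.4, 25.0 and 23.3 normalized read counts) did not. Near Wfdc17 on chromosome 11 lay a cluster of chemokine genes: Ccl9, Ccl6 and Ccl4 had the members' order and Ccl3 and Ccl5 did not. Ccl6 had 94.0 and 23.8, 170.1 and 22.9, and 17.7 and 24.3. Ccl5 had 49.95 and 0.952 in the Control pair, 271 and 60.01 in the PIA pair and 7.30 and 0 in the PIA+IL-27 pair, with PIA 2 above Control 1. Among the remaining neighbours there, Wfdc21 had the order and Gas2l2 and Ddx52 did not. On chromosome 16 the stefins Stfa2, Stfa3, Stfa2l1 and Cstdc4 had the order of Cstdc5 and Cstdc6. The other listed neighbours of that cluster, Parp9, Parp14 and Iqcb1, did not: Parp14, an interferon-induced gene, had 39.2 and 32.4, 106 and 63.3, and 73.0 and 146.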

How the data were processed

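Hippocampal RNA was sequenced in 6 libraries, grouped by title into 3 pairs. The members and gene lists were chosen with earlier results of these data known. The authors' expected count per gene is an estimate, per the file headers; 11.3 to 13.3% of values per library were not whole. The deposited normalized read count, a signal, is the read count raised to the next whole number and scaled by 1 factor per library. The authors also give TPM and FPKM per library, per the file headers, and the deposited log2 fold change and Q value (an adjusted p-value) of each comparison. Aligner, counter, build and strand: not given in the sources used here.

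Expected counts were rounded and fitted on the whole table with edgeR 4.0.16 (R 4.3.3; quasi-likelihood test, all 6 libraries, the authors' factors), because TMM over a table of called genes would remove shared shifts. After filterByExpr 3216 genes were left, all 5 members among them; p-values were adjusted by Benjamini-Hochberg at a threshold of 0.05. The spread was pooled over genes (coefficient of variation 0.597), as the prior degrees of freedom were infinite. Alternatives were no filter, TMM or median-of-ratios factors, a replicate block, only the compared libraries, DESeq2 1.42.0, limma 3.58.1 on log2(TPM + 1) and log2(TPM + 0.1), and each library left out. Counting intervals are exact (Poisson for levels, Clopper-Pearson for ratios, 95%) and cover counting error only. Named genes were the members, list genes called or with the smallest p in PIA against Control (up to 4 per list), defining markers, the 5 genes most like each member and neighbours within 500 kb; 2 genes that the rule names are not reported here, and other genes, such as Retnlg, Cxcr2, Chil3, Lyz2, C1qa, Cxcl1 and Cxcl2, were named after their values were seen. Of the gene identifiers, 3702 were found in the RefSeq gene table. Over all listed genes, same-numbered libraries did not deviate together (correlations of 0.15, 0.06 and -0.23), so the main fit did not take numbers as pairs. S100a8, S100a9, Wfdc17 and Cstdc5 were higher in replicate 1 of every group, and whether the numbers mark a batch was not tested. In PIA+IL-27 the difference exceeded counting error for S100a9 (ratio 3.85, 1.99 to 8.02). It did not for S100a8 (1.79, 0.908 to 3.65) or Cstdc5 (3.22, 0.576 to 32.6), and Wfdc17 rests on 3 and 0 reads there.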

Additional observations from a re-analysis of the deposited data

How the results depend on the processing

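Of 201 fitted values of the members under the alternatives, 189 kept the direction they had with all libraries and 12 did not, and each of the 12 came from leaving out PIA 1 or Control 1; the values are given above. The count of genes called over the whole table depended on the setting. With all libraries edgeR called 7 in PIA against Control, 14 in PIA+IL-27 against PIA and 10 in PIA+IL-27 against Control (202, 602 and 92 at an unadjusted p under 0.05). With TMM factors edgeR called 0, 0 and 0 (118, 591 and 119 unadjusted) and with median-of-ratios factors 0, 0 and 0 (114, 583 and 110 unadjusted). DESeq2 called 2, 4 and 1. With limma on log2(TPM + 1) the counts were 6, 10 and 2, and with 0.1 added 12, 14 and 5. Fitting only the compared libraries gave 9, 449 and 1. The replicate block rests on replicate numbers that no label calls pairs. It gave 3, 4 and 3, and called no member. With the block S100a8 was at -2.2 in PIA+IL-27 against PIA and at -0.33 in PIA+IL-27 against Control. Leaving out 1 library at a time gave 0 to 7 in each comparison, 0 without Control 1 (1264, 1602 and 109 unadjusted), 0 without Control 2 (45, 1589 and 1192 unadjusted), and 0 in PIA+IL-27 against PIA without PIA 1 (92 unadjusted). S100a8 was called in PIA+IL-27 against PIA with all libraries and without the filter on low counts, and in none of the other alternatives that gave it a value; Wfdc17 was called in these, in both limma fits and without PIA 2. The Lcn2 call was lost with TMM (-6.01, adjusted p = 0.299), the replicate block (-4.57, adjusted p = 0.158) and only the compared libraries (-4.87, adjusted p = 0.069), all by edgeR. The cause was not tested. Cstdc6 gave no value without PIA 1, and Wfdc17, Cstdc5 and Cstdc6 gave none in either PIA+IL-27 comparison when only the compared libraries were fitted, since they fell under the filter. Depth limits Cstdc5, Cstdc6 and Wfdc17 most, with 6 reads or fewer in 4 libraries each.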

Other observations

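Genes of cytotoxic lymphocytes had values of their own beside the members. Gzma, a granule protease of natural killer and T cells, had 9.79 and 0.952 normalized reads in the Control pair, 24.0 and 9.82 in the PIA pair and 3.13 and 1.94 in the PIA+IL-27 pair. Klrb1c, the natural killer antigen NK1.1, had 7.84 and 1.90, 38.4 and 7.64, and 3.13 and 1.94. Nkg7 had 0 in the Control pair, 7.69 and 5.46 in the PIA pair and 1.04 and 0 in the PIA+IL-27 pair, and Ncr1 had 1.96 and 0, 8.65 and 3.27, and 1.04 and 0. Cd8a, of cytotoxic T cells, had 6.67 in Control 2 and 4.17 in PIA+IL-27 1 and 0 to 1.09 in the other 4 libraries. Of the lymphocyte list, edgeR and limma tested 1 gene, Gzma, and DESeq2 tested 6. None was called in any comparison by these tools, and each tool gave 1 gene with an unadjusted p under 0.05 in PIA+IL-27 against PIA and 0 in the other comparisons.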
